A study of Mus musculus with 9 samples.

Results

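Mouse embryonic stem cells (mESCs) exposed to 10 nM retinoic acid (RA), the culture called R8, were measured on day of differentiation (DoD) 8 as embryoid bodies (EBs) and again on DoD 36 as neurospheres (NS), and the difference between these 2 arrays is described here. Both arrays were chosen by their labels, as 2 of the 9 arrays in the series, and no measured value entered the choice. The cells were 1 mESC line, written G6B-2 in the sample labels and B6G-2 in the methods. A figure legend of the study describes their green fluorescence as GFP of cytoskeleton proteins, and no further genotype was given. EBs formed after leukaemia inhibitory factor was withdrawn, RA was present from DoD 2 to 6, the EBs were moved to laminin-coated wells on DoD 8, and neural medium was used from DoD 22. The step from DoD 8 to 36 therefore spans plating, the change of medium and time together, which cannot be told apart, and exposure to RA had ended before the first of the 2 arrays. The sample labels call the later stage day 29, whereas the methods give DoD 36. RNA of 6 biological replicates was mixed for each condition and hybridised to 1 array, so that no comparison below had a replicate check and none carried a test. The same step in the vehicle control (C, 0.1% ethanol in the labels and dimethyl sulfoxide in the series text) and in the culture exposed to 100 nM RA (R7) is given beside R8 where it helps to place a value, and the 3 steps share no array.

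Pluripotent cells keep themselves undifferentiated through a small circuit of transcription factors and divide quickly, with a short first gap phase. RA is a derivative of vitamin A that binds nuclear receptors, and a pulse of it during EB formation directs cells toward neural fates, from which neurons appear first and astrocytes later. EBs also form tissues of all germ layers, among them beating heart muscle and an outer layer of endoderm on its basement membrane.

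The values are bead signals on a linear scale, recovered from the deposited log2 ratios and rescaled so that the 16146 probes detected on all 9 arrays had the same median on each. A probe was called detected from a signal of 29.1 before rescaling. The number of detected probes ranged from 20737 to 23008 over the 9 arrays and was 22182 on the R8 DoD 8 array and 22981 on the R8 DoD 36 array. Probes at the lowest allowed signal on 6 or more of the other arrays served as a gauge of background. The 0.99 quantile of their signals was 24.7 on the former and 56.0 on the latter. On a DoD 36 array this gauge also takes in genes detected in neurospheres alone, such as *Cts6*, with 4146 on the R8 array. The quantile was 32.2 on the C array of DoD 36, where *Cts6* had 11273, and 77.6 on the R7 array, where it had 2049. The gauge is therefore not a measure of background alone. Why it was higher on the RA arrays of DoD 36 was not tested, nor was the part of background in the values below. As a yardstick without replicates, the C and 1 nM RA arrays of DoD 8 differed by a robust SD of 0.495 on the log2 scale among the dimmest of 10 bins of detected probes, of 0.577 in the next bin, with signals from 51.3 to 72.2, and of 0.15 among the brightest. In these bins 4.5%, 11.0% and 0.1% of probes differed by at least 2-fold, so that values resting on signals below 72.2 are the least certain by this measure of SD. A gene detected on 1 of the 2 arrays only has a bound, written "at least" or "at most", and a gene below detection on both has no value.

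Of the 4 genes set as markers of the step, 2 were lower on DoD 36 and 2 were higher, as the plot of marker signals before and after neurosphere formation shows. *Nanog*, a core pluripotency factor, had a signal of 12255 on DoD 8 and 151 on DoD 36, a log2 difference of -6.35. *Top2a*, the topoisomerase that untangles chromosomes before mitosis, had 6903 and then 897, a log2 difference of -2.94. The direction was the same in C, at -6.29 for *Nanog* and -4.38 for *Top2a*, and in R7, at -5.95 and -2.06. *Gfap*, the intermediate filament of astrocytes, was not detected on DoD 8 and had a signal of 1951 on DoD 36, at least 6.01 higher on the log2 scale. In C the bound was at least 2.52, and in R7, where *Gfap* reached 25508, at least 9.85. The R8 signal on DoD 36 thus lay between those of the other cultures, 169 in C being the lowest. *Myl2*, the regulatory light chain of the heart ventricle, had a signal of 51.1 on DoD 8 and 4874 on DoD 36, a log2 difference of 6.58, while it was below detection on the DoD 36 arrays of C and of R7. It was the only one of the 4 that was high on a single array of the series. In RNA from whole cultures, fewer cells of a type and less RNA per cell cannot be told apart.

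**Figure D1:**
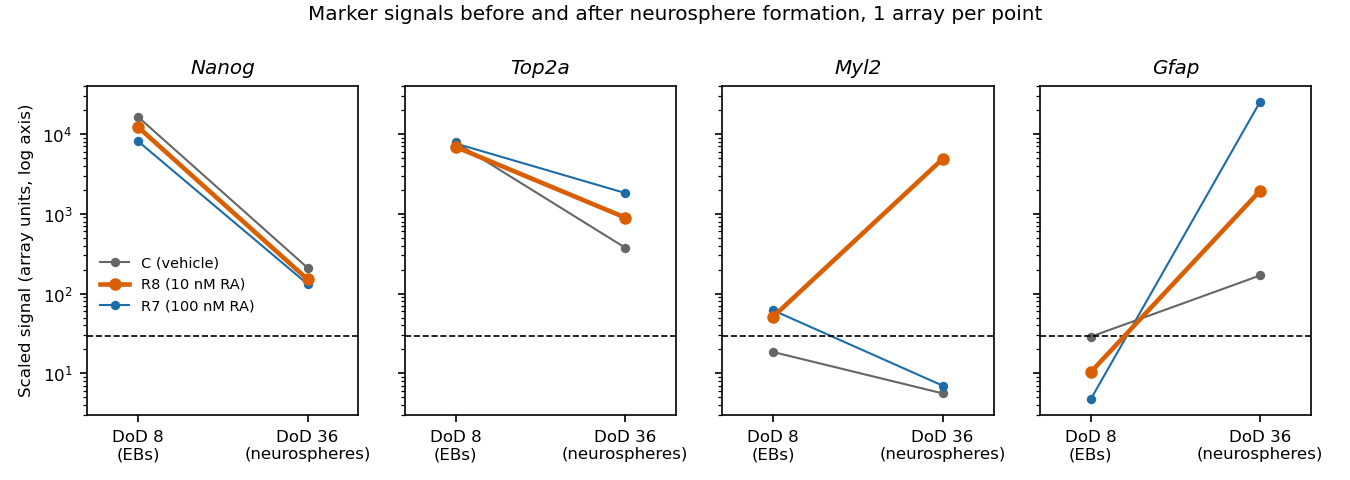
Rescaled bead signal (log axis) of *Nanog*, *Top2a*, *Gfap* and *Myl2* on the DoD 8 and DoD 36 arrays of C, R8 and R7, 1 point an array, with a line joining the 2 arrays of a culture and the detection signal as a dashed line. *Nanog* and *Top2a* are lower on the R8 DoD 36 array than on the R8 DoD 8 array, *Gfap* is highest in R7 at DoD 36 and intermediate in R8, and of these 6 arrays *Myl2* is high on that of R8 DoD 36 alone (4874).

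Of 13410 genes detected on at least 1 of the 2 R8 arrays, 2445 (18.2%) had a DoD 36 signal at least 2-fold above that of DoD 8 and 1972 (14.7%) one at least 2-fold below it, and the median over all of them was 0.0. Counts of list members below are to be read against these shares. Larger changes were more often increases, with 901 genes up and 556 down by 4-fold or more, and with 150 and 56 past 16-fold. In all, 1244 genes were detected on DoD 36 alone and 862 on DoD 8 alone. Over probes in place of genes, 7866 of 25288 (31.1%) changed by at least 2-fold, 4074 of them upward and 3792 downward, so that 51.8% of the changed probes were higher. Without rescaling of the arrays that share was 63.6%. Of the 40 gene lists examined, 7 had a median of at least 1 and 8 a median of -1 or less.

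**Figure D2:**
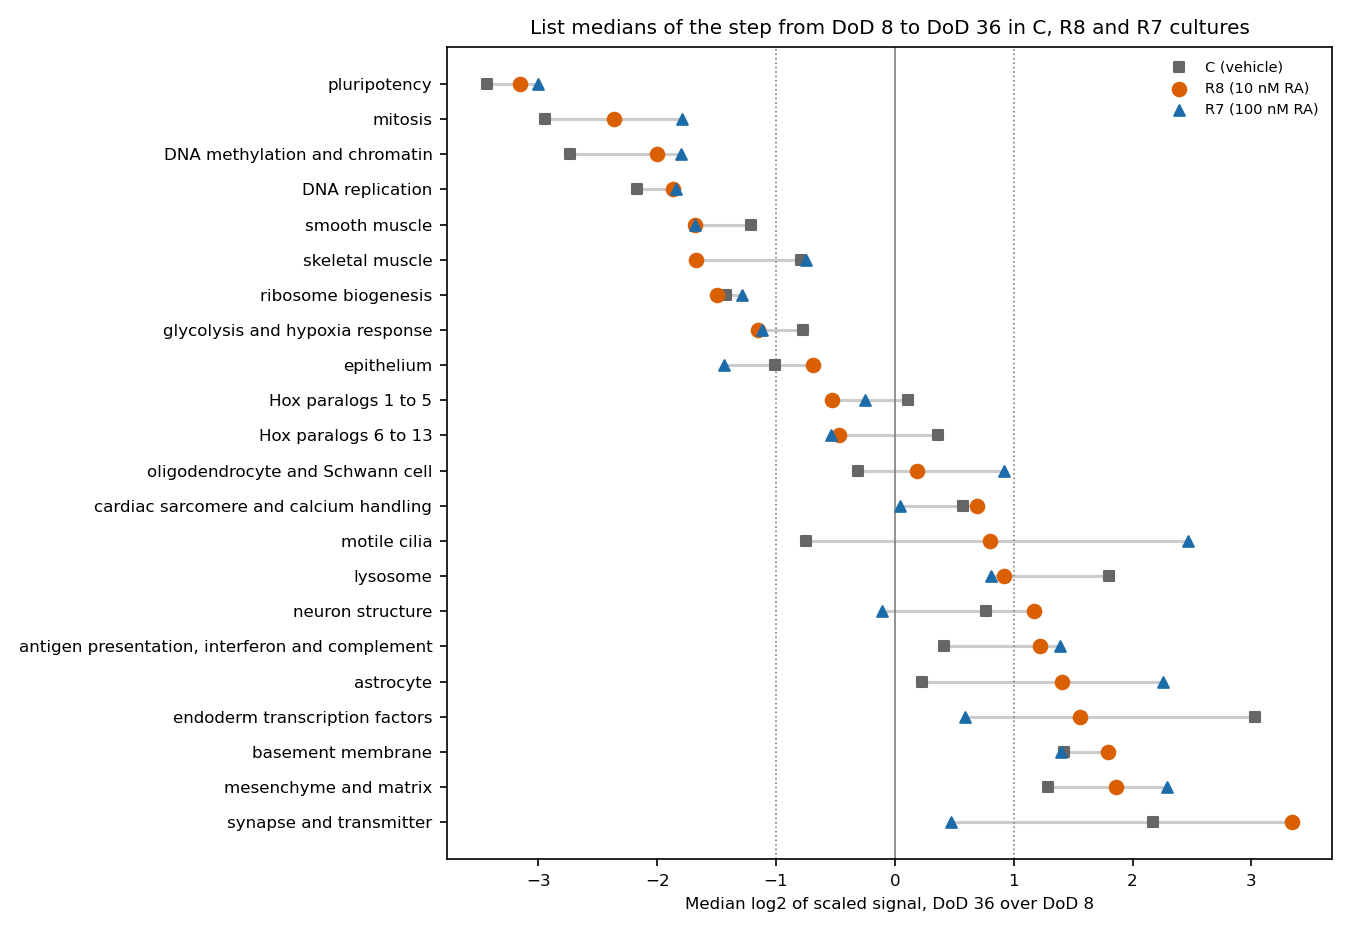
Median log2 difference (DoD 36 minus DoD 8) of the members of selected gene lists in C, R8 and R7, 1 symbol a culture, with a solid line at 0 and dotted lines at 2-fold. Among the lists drawn, pluripotency lies lowest in R8 (-3.15) and the synapse list highest (3.34), and the synapse list is at 0.47 in R7.

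Genes of the pluripotent state were lower. Of 27 measured members of the pluripotency list, 24 were at least 2-fold lower on DoD 36 and 1 was higher, with a median of -3.15, against -3.43 in C and -3.0 in R7. *Pou5f1*, the POU-domain factor at the centre of the circuit, had signals of 11016 and 293, a log2 difference of -5.23, and *Dppa3*, an oocyte and naive-state gene, had 2184 and 39.1, a difference of -5.80. *Gdf3*, a TGF-beta family ligand of pluripotent cells, had 3374 and 110, a difference of -4.94. *Sox2*, which neural progenitors also use, had 1309 and 254 and differed by -2.36, against -5.07 in C and -1.84 in R7. The single member that was higher was *Klf4*, a Kruppel-like factor that many epithelia express too, with signals of 779 and 4535 and a difference of 2.54, against 2.2 in C and 2.37 in R7. *Klf5*, a relative of it, had 9530 and 11118, a difference of 0.22. Both *Pou5f1* probes were above detection on the R8 DoD 36 array, whereas of the 3 *Nanog* probes only the brightest was, and the others were at most -7.50 and -7.07. A dimmer *Klf5* probe, with 84.4 and 222, gave 1.40.

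A set of genes seen in the 2-cell-like state of mESC cultures and in germ cells was near or below detection on the later array. *Zscan4c*, the zinc finger gene that marks that state, had a signal of 2409 on DoD 8 and was not detected on DoD 36, at most -6.51 on the log2 scale. *Pramel16* and *Pramel20* were at most -6.67 and -6.29. *Tcstv3* went from 1319 to 26.5 and differed by -5.64. Of 13 measured symbols of the Zscan4, Tcstv and Pramel families, 8 were at least 2-fold lower and none was at least 2-fold higher, and the median was -2.20, against -1.99 in C and -2.85 in R7. Members of these families are near-identical copies that a bead may not separate, so single members are uncertain. *Dazl*, a germ cell RNA-binding protein, was at most -4.69, *Lefty2*, an inhibitor of Nodal signalling, at most -4.91, and *Eras*, a Ras of mESCs, at most -6.30. *Ooep*, an oocyte gene, had 19800 and 365, a difference of -5.76.

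Enzymes that methylate DNA or shape chromatin in early cells were lower as a list, with 10 of 15 measured members at least 2-fold lower, none higher and a median of -2.0. *Dnmt3l*, the cofactor of new DNA methylation, had signals of about 20693 and 1593 and a log2 difference of -3.70. *Dnmt3b*, one of the enzymes it helps, differed by -2.90, and *Tet1*, which oxidises methylcytosine, by -3.17, from 2947 to 327. *Hells*, a chromatin remodeller needed for DNA methylation, had 720 and 42.8 and differed by -4.07. *Dnmt1*, the maintenance enzyme, differed less, by -1.13.

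Genes of mitosis were lower together. Of 19 measured members of the mitosis list, 17 were at least 2-fold lower on DoD 36 and none was higher, with a median of -2.36, against -2.94 in C and -1.79 in R7. *Aurkb*, the kinase of the chromosomal passenger complex, had signals of 3627 and 396, a log2 difference of -3.19. *Bub1b*, of the spindle checkpoint, had 3800 and 437, a difference of -3.12, and *Plk1*, the polo kinase, had 12896 and 1655, a difference of -2.96. The R8 values of *Aurkb*, *Bub1b*, *Plk1* and *Top2a* each lay between those of C and R7. The 2 measured members that missed 2-fold were *Bub1*, at -0.36, and *Cks2*, at -0.45, and both had signals under 111 on each array. *Bub1* and *Cks2* are therefore read near the dim end of the scale.

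The promoters of these genes are shown because cell cycle genes are known to share short elements there: CCAAT, bound by the factor NF-Y, and TTTGAA, a form of the cell cycle homology region. Windows of 250 bases before each start site came from RefSeq (GRCm38.p6), where 16 of the 19 measured members had one. CCAAT, read on both strands, was in 13 of the 16 (81.2%), against 34.5% of the windows of all 27025 genes with one and 35.9% of those of the measured genes. TTTGAA was in 6 of the 16 (37.5%), against 16.3% and 11.3%. Among all genes at least 2-fold lower in R8 the share with CCAAT was 39.3%, and among those higher 33.2%. The windows of 3 members follow, 5′ to 3′ on the gene's strand, with each match to either element in capitals (ATTGG and TTCAAA are the matches on the opposite strand).
*Top2a* chr11:99024190-99024439, minus strand: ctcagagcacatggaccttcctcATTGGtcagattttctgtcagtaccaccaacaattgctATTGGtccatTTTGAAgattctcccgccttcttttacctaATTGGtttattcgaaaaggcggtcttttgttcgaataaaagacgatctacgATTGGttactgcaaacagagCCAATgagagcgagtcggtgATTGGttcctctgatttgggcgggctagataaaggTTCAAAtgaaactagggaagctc
*Cdk1* chr10:69352913-69353162, minus strand: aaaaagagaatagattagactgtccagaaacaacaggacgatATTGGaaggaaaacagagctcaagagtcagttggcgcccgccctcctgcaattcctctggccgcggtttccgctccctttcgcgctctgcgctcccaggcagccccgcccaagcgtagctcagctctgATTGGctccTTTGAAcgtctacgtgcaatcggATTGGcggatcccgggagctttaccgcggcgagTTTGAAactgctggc
*Cdc20* chr4:118437344-118437593, minus strand: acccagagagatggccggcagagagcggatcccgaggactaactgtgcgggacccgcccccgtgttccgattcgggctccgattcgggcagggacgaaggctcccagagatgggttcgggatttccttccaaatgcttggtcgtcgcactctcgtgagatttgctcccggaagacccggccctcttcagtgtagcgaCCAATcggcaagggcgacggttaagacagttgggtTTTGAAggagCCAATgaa
*Top2a* had 6 matches to CCAAT and 2 to TTTGAA, *Cdk1* 3 and 2, and *Cdc20* 2 and 1. *Cdk1*, the kinase that drives entry into mitosis, had signals of 5903 and 1070, a difference of -2.46, and *Cdc20*, which activates the anaphase-promoting complex, had 8079 and 1101, a difference of -2.88. A match is a description of letters and not of binding, and the windows were not measured here.

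DNA replication genes were lower by a similar amount, with 20 of 23 measured members at least 2-fold lower, none higher and a median of -1.87. *Ccne1*, cyclin E1, had signals of 2683 and 260, a log2 difference of -3.37, and *Rrm2*, the regulated subunit of ribonucleotide reductase, had 4018 and 493, a difference of -3.03. *Pole*, the leading-strand polymerase, differed by -2.87 and *Gins1*, of the replicative helicase, by -2.75. In their windows CCAAT was present in 10 of 18 (55.6%) and TTTGAA in 3 of 18 (16.7%). The medians of the list were -2.17 in C and -1.84 in R7.

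Inhibitors of the cell cycle and D cyclins, which drive it, mostly stayed within 2-fold by their brightest probes. In this mixed list 1 of 13 measured members was at least 2-fold higher and 1 lower, with a median of 0.03. *Cdkn2c*, the p18 inhibitor, had signals of 324 and 656, a log2 difference of 1.02, and *Ccnd3*, a D cyclin, had 3859 and 1050, a difference of -1.88, against -4.49 in C and -2.78 in R7. By their brightest probes the other inhibitors named Cdkn lay between -0.58 (*Cdkn1b*) and 0.47 (*Cdkn1a*). Some dimmer probes passed 2-fold: for *Cdkn2a* at -1.42, *Ccnd1* at -1.35 and *Ccng1* at -1.02, and upward for *Ccnd2* at 1.78. Any further dimmer probes of *Ccnd1*, *Ccng1* and *Ccnd2* stayed within 2-fold. Dimmer probes of *Cdkn2c* and *Ccnd3* gave 0.33 and -0.72, both within 2-fold.

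Ribosome building and glycolysis were lower as well. Of 10 measured genes of ribosome biogenesis, 7 were at least 2-fold lower and none was higher, with a median of -1.5. *Nop58* and *Nop56*, core proteins of the particles that methylate ribosomal RNA, differed by -2.24 and -1.76. Of 22 measured genes of glycolysis and the hypoxia response, 11 were at least 2-fold lower and 1 was higher, with a median of -1.15. *Pfkp*, a phosphofructokinase, had signals of 7059 and 865, a log2 difference of -3.03, while a dim second probe, with 66.9 and 80.4, gave 0.27. *Pdk1*, which keeps pyruvate out of mitochondria, differed by -2.23, *Pkm*, pyruvate kinase, by -2.23 and *Ldha*, lactate dehydrogenase, by -2.20. The member that was higher, *Adm*, encodes the vessel peptide adrenomedullin and differed by 1.37. Respiratory chain genes stood nearer to 0, with 1 of 17 measured members higher, 1 lower and a median of -0.27. Fatty acid oxidation genes had 3 of 11 higher, none lower and a median of 0.47, and *Ppargc1a*, a coactivator of mitochondrial genes, was at least 2.80 higher.

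**Figure D3:**
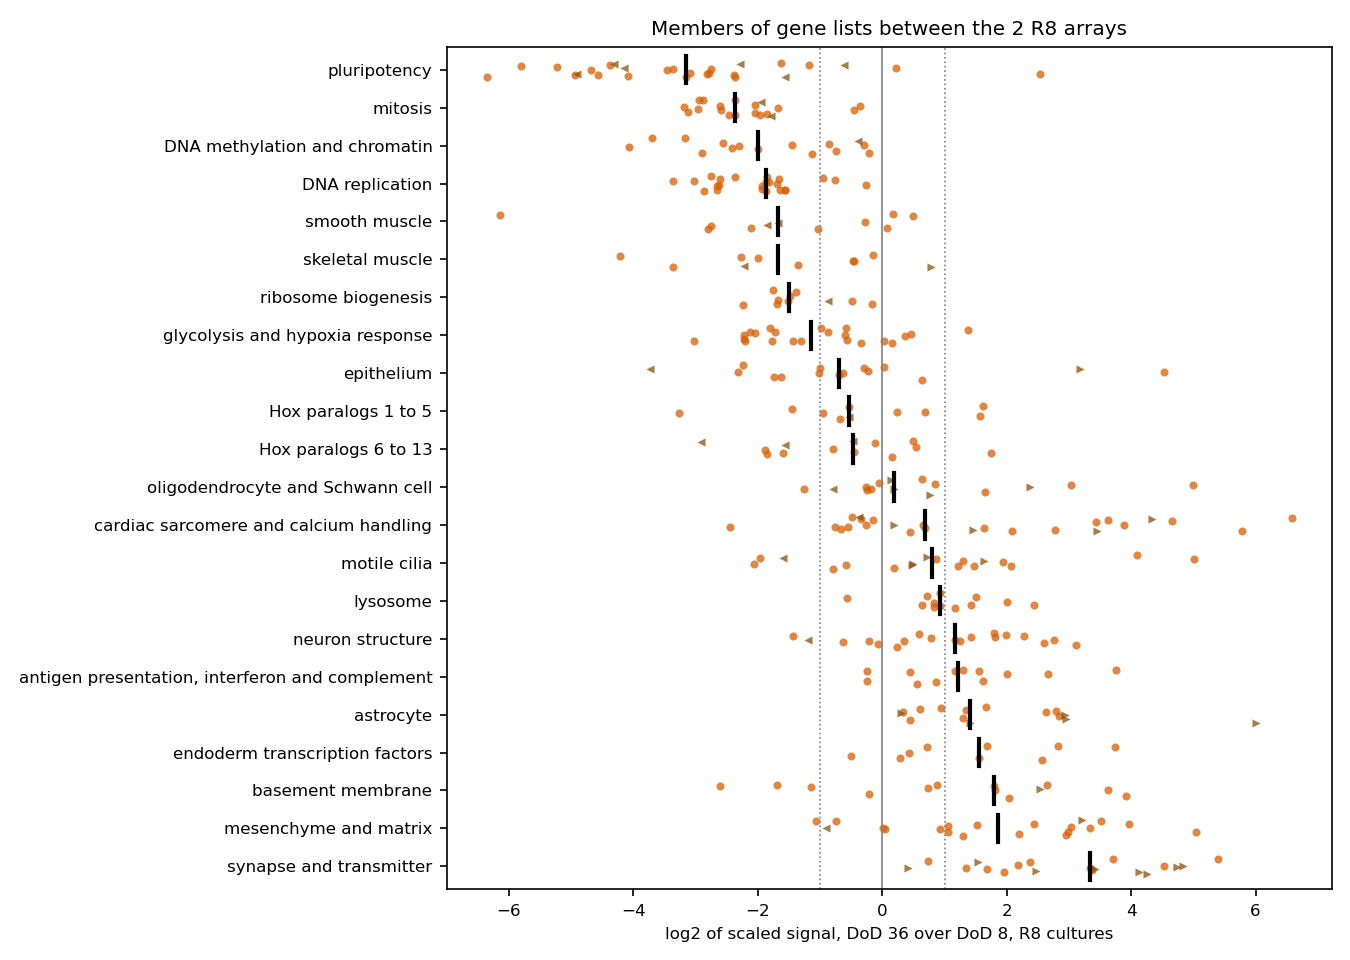
Log2 difference (DoD 36 minus DoD 8) of each measured member in R8 for a set of gene lists, 1 point a gene, with bounds drawn as triangles, the list median as a bar and dotted lines at 2-fold. Members of the pluripotency and mitosis lists lie below 0 apart from *Klf4* (2.54) and *Klf5* (0.22), and all 19 measured synapse members lie above 0.

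Synaptic genes were the list with the largest median increase of the 40. Of 19 measured members, 17 were at least 2-fold higher on DoD 36 and none was lower, and the median was 3.34, with 8 members entering as bounds because they were not detected on DoD 8. Over the 11 members detected on both arrays the median was 2.37. The median of all measured members was 2.17 in C and 0.47 in R7. *Syt1*, the calcium sensor of transmitter release, had signals of 36.2 and 1532, a log2 difference of 5.40, and *Snap25*, a SNARE protein of the same step, had 105 and 2427, a difference of 4.53. In R7 the difference was 0.58 for *Syt1* and -0.13 for *Snap25*. *Gad1*, which makes GABA, was not detected on DoD 8 and had 861 on DoD 36, at least 4.83 higher, against at least 3.11 in C and 0.81 in R7. *Gria1*, an AMPA receptor subunit, was at least 4.74 higher in R8 and 5.34 higher in R7. Genes of both inhibitory and excitatory transmission were thus among those higher in R8. *Slc32a1*, the vesicular transporter of GABA and glycine, had 118 and 1216, a difference of 3.37, and *Slc17a6*, a vesicular glutamate transporter, had 102 and 527, a difference of 2.37. *Tph2*, of serotonin synthesis, was not detected on DoD 8 and had a signal of 167 on DoD 36, at least 2.47 higher. *Slc17a7*, *Th* and *Chat*, markers of cortical glutamatergic, dopaminergic and cholinergic neurons, were not detected on either R8 array. Other probes of *Snap25* and *Syt1* gave smaller values, at 0.18 for a second *Snap25* probe and 2.28 for a second *Syt1* probe.

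Structural genes of neurons were split. Of 19 measured members, 10 were at least 2-fold higher and 2 lower, with a median of 1.17, against 0.77 in C and -0.11 in R7, and it was 0.59 when the probes of each gene were averaged. *Stmn3*, a stathmin of neurites, had signals of 124 and 1074, a log2 difference of 3.11, and *Rbfox3*, the antigen NeuN, had 59.3 and 401, a difference of 2.76. *Gap43*, the growth cone protein, had 364 and 2201, a difference of 2.60. *Dcx*, doublecortin of migrating neurons, had 147 and 712, a difference of 2.28, against 3.45 in C and -1.98 in R7. *Map2* and *Tubb3*, which the study used as neuronal markers, had low signals. The brightest *Map2* probe had 42.3 and 53.8, a difference of 0.35, a second had 34.9 and 70.2, a difference of 1.01, and 3 more were detected on DoD 36 alone, at least 0.08 to 0.79 higher. *Tubb3* had 165 and 106, a difference of -0.63. *Elavl4*, an RNA-binding protein of neurons, differed by -1.43 and *Nefh*, the heavy neurofilament, by at most -1.20.

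Astrocyte genes were higher in R8, with 10 of 15 measured members at least 2-fold higher, none lower and a median of 1.41. The median was 0.23 in C and 2.26 in R7. Besides *Gfap*, *Glul*, glutamine synthetase, was not detected on DoD 8 and had a signal of 234 on DoD 36, at least 2.95 higher on the log2 scale, and *Sparcl1*, a secreted matrix protein, had 230, at least 2.93 higher. *Fgfr3*, a growth factor receptor of astrocyte precursors, had 54.2 and 389, a difference of 2.84. *Slc1a3*, a glial glutamate transporter, had 606 and 4181 and differed by 2.79, close to R7 (2.77) and unlike C (-0.13). *S100b* was not detected on either array. For *Aqp4*, the water channel of astrocyte endfeet, the brightest probe gave 1.29 and another probe at least 7.03, so that its size is not settled.

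Among genes outside the lists, several had higher DoD 36 signals in both RA cultures than in C, while the differences in C were in part bounds and cannot be ranked. *Ptgds*, prostaglandin D synthase of glia and meninges, had 80.0 and 5265, a log2 difference of 6.04, against 2.22 in C and 7.11 in R7. *Adcyap1r1*, the receptor of the peptide PACAP, differed by 5.88, against at least 3.68 and 4.96, with DoD 36 signals of 376 in C, 4952 in R8 and 6700 in R7. *Ecrg4*, a secreted peptide of the choroid plexus, was at least 7.37 higher, against at least 3.45 and 9.07, and *Apod*, apolipoprotein D, at least 7.54, against at least 2.83 and at least 7.41.

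Neural progenitor genes had 3 of 12 measured members at least 2-fold higher and 1, *Sox2*, lower, with a median of 0.42. *Sox9*, which acts in glial and cartilage precursors, had signals of 958 and 4501, a log2 difference of 2.23, against -0.01 in C and 2.22 in R7. *Prom1*, the membrane protein CD133, had 1171 and 5674, a difference of 2.28, although other probes of it gave -1.55 and at least 3.10. *Zic1*, a zinc finger factor of the dorsal neural tube, had 307 and 1291, a difference of 2.07, and *Nes*, nestin, 166 and 206, a difference of 0.31.

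Oligodendrocyte genes were mixed, with 4 of 15 measured members at least 2-fold higher, 1 lower and a median of 0.19. *Olig1*, a bHLH factor of the lineage, had signals of 1785 and 14714, a log2 difference of 3.04, and *Cldn11*, the claudin of myelin and also of Sertoli cells, had 89.9 and 2872, a difference of 5.0. *Sox10*, of oligodendrocytes and neural crest, was at least 2.37 higher. The brightest *Mbp* probe, for myelin basic protein, gave -0.24 while another gave 5.70, from 150 to 7835, and *Mag*, a myelin protein, gave bounds of at least 0.14 and 5.85 from its probes. Myelin genes therefore depend on the probe.

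Motile cilia genes had a different median in each culture. In R8, 8 of 18 measured members were at least 2-fold higher and 3 lower, with a median of 0.80, against -0.75 in C and 2.47 in R7. *Dynlrb2*, a dynein light chain, had signals of 30.4 and 982, a log2 difference of 5.01, and *Meig1* had 35.1 and 596, a difference of 4.09, against 0.07 in C and at least 5.96 in R7. *Rfx2* and *Mns1*, which germ cells also use, were lower, by -2.06 and -1.97. *Foxj1*, the master regulator of motile cilia, was not detected on either R8 array.

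Genes of regional identity changed one by one. Of 14 measured forebrain, midbrain and hindbrain factors, 6 were at least 2-fold higher and 3 lower, with a median of 0.38. *Dlx1*, of forebrain interneurons, had signals of 36.8 and 228, a log2 difference of 2.63, and *Dlx2*, its neighbour, 79.9 and 218, a difference of 1.45. *En1*, of the midbrain-hindbrain border, had 354 and 924, a difference of 1.38. *Otx2* and *Gbx2*, which meet at that border and are also used by mESCs, were lower, by -3.07 and -3.30. Among Hox genes of paralog groups 1 to 5, *Hoxa2* and *Hoxd4* were at least 2-fold higher and *Hoxb5* and *Hoxa5* lower, of 10 measured. *Hoxb5* went from 641 to 66.7, a difference of -3.26, and *Hoxa5* from 901 to 329, a difference of -1.45, against 1.38 in C. In groups 6 to 13, 1 of 13 was higher, *Hoxd8* at 1.74, and 5 were lower, among them *Hoxb7* at -1.59 and *Hoxc6* at -1.85, for which a dimmer probe gave -0.49. The median of the posterior groups was -0.47 in R8, 0.36 in C and -0.54 in R7.

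Retinoid genes moved both ways, with 4 of 15 measured members at least 2-fold higher, 4 lower and a median of 0.20. Enzymes that make RA were among the former. *Aldh1a1* had signals of 39.4 and 779, a log2 difference of 4.31, and *Aldh1a3* had 36.2 and 115, a difference of 1.66. The other *Aldh1a3* probes were not detected on either R8 array, and *Aldh1a2*, of the same family, was at least 0.42 higher. *Cyp26a1*, which degrades RA and is itself switched on by it, had 368 and 51.6, a difference of -2.84, against -0.42 in C and at most -3.89 in R7. The receptor *Rarg* was at most -3.99 and the binding proteins *Crabp1* and *Crabp2* were at -1.14 and -2.28, while the receptor *Rarb* had 240 and 254, a difference of 0.08. In the Notch pathway 3 of 15 were higher, among them *Hey2* at a bound of at least 3.46 and *Notch1* at 1.11, and 3 were lower, among them *Notch4*, of endothelium, at -2.22. The median of that list was 0.02.

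Heart genes were higher in part. Of 25 measured members of the cardiac sarcomere and calcium handling list, 12 were at least 2-fold higher on DoD 36 and 1 was lower, with a median of 0.69, against 0.57 in C and 0.04 in R7. With a detection signal of 100 the median was 1.52. *Tnnt2*, cardiac troponin T, had signals of 118 and 6474, a log2 difference of 5.78, against 4.22 and 2.49. *Ryr2*, the calcium release channel, had 32.5 and 817, a difference of 4.65, and *Myl7*, the atrial light chain, had 136 and 2004, a difference of 3.88. *Myh7*, the slow myosin of ventricles, had 274 and 1873, a difference of 2.77, against 1.91 in C and -0.56 in R7. *Pln*, phospholamban, which restrains the calcium pump, was not detected on DoD 8 and had 331 on DoD 36, at least 3.45 higher, while it was below detection in C on both days. *Nppa*, the atrial natriuretic peptide, was the member that was lower, from 563 to 103, a difference of -2.45.

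A pair of sarcomere genes changed by less than 2-fold in R8, and their brightest probes were lower in the other cultures. *Actc1*, cardiac actin, had signals of 1337 and 1203 in R8, a log2 difference of -0.15, against at most -4.53 in C and at most -6.29 in R7. A second *Actc1* probe gave 0.26 in R8, -0.96 in C and -3.01 in R7, so that the size of the difference from C is not settled. *Actn2*, alpha-actinin of the Z disc, differed by -0.76 in R8, by at most -3.87 in C and by -4.54 in R7. Of the cardiac transcription factors, 4 of 10 measured were higher by at least 2-fold and none was lower, with a median of -0.03. *Gata4* and *Gata6*, which endoderm uses as well, had 1191 and 3831 and 2358 and 16604, differences of 1.69 and 2.82, and *Mef2c* differed by 2.27. *Nkx2-5* and *Tbx5*, more specific to the heart, differed by -0.35 and -0.24. *Isl1*, of heart and motor neuron precursors, had 129 and 122, a difference of -0.09, against at most -1.83 in C and at most -2.73 in R7.

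The CArG box, the element of serum response factor in muscle genes (CC, 6 letters of A or T, GG), was in the 250-base windows of 4 of 22 cardiac members with one (18.2%), against 1.40% of all windows. They were those of *Myl3*, *Myl7*, *Actc1* and *Ldb3*. Of 11 measured smooth muscle members 8 had a window, and *Actg2* and *Tagln* were among those without. None of the 8 windows held the box in this strict form within the 250 bases. The *Acta2* window holds ccctatatgg and ccttgtttgg, near matches that the strict form leaves out. The search says nothing of such looser forms or of more distant elements. The windows of 2 members are shown, one from a gene that was higher in R8 and one from *Actc1*, with the box in capitals.
*Myl7* chr11:5898783-5899032, minus strand: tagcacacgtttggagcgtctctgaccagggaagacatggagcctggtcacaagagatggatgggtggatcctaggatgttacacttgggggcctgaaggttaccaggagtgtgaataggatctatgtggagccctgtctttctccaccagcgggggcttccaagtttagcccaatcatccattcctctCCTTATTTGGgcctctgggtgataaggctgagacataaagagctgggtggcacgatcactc
*Actc1* chr2:114052876-114053125, minus strand: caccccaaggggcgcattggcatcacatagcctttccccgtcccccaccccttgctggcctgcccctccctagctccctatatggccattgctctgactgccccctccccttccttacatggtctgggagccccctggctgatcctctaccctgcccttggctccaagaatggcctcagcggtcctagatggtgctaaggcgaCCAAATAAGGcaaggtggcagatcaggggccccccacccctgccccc
*Myl3*, the ventricular essential light chain, had signals of 803 and 8660, a log2 difference of 3.43, whereas *Ldb3*, a Z-disc protein, had 30.3 and 49.0, a difference of 0.69.

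Skeletal and smooth muscle genes went the other way. Of 10 measured skeletal muscle members, 6 were at least 2-fold lower and none was higher, with a median of -1.67, against -0.79 in C and -0.75 in R7. *Mylpf*, the fast light chain, had signals of 9434 and 508, a log2 difference of -4.21, and *Tnni2*, fast troponin I, had 546 and 53.3, a difference of -3.36. *Myod1*, *Myog* and *Pax7*, the defining factors of the lineage, were not detected on either R8 array. Of 11 measured smooth muscle members, 7 were lower and none higher, with a median of -1.68. *Acta2*, smooth muscle actin, had about 24639 and 5715, a difference of -2.11. *Actg2*, the enteric actin, had 4399 and 62.2, a difference of -6.15, against -1.95 in C and -3.11 in R7, and it was among the genes whose R8 step was furthest below both other steps.

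Mesenchyme and matrix genes were higher. Of 20 measured members, 14 were at least 2-fold higher and 1 was lower, with a median of 1.86, against 1.29 in C and 2.29 in R7. *Col3a1*, a fibrillar collagen, had signals of 32.6 and 1073, a log2 difference of 5.04, and *Mgp*, matrix Gla protein, had 146 and 2272, a difference of 3.97. *Col6a1*, of microfibrils, had 307 and 3523, a difference of 3.52, and *Dcn*, the proteoglycan decorin, had 855 and 8631, a difference of 3.34. *Pdgfrb*, a receptor of pericytes, was the lower member, at -1.07. *Prelp*, a proteoglycan of connective tissue outside the list, was not detected on DoD 8 and had 6095 on DoD 36, at least 7.66 higher, against at least 4.75 in C and at least 9.50 in R7. In the cartilage list 2 of 6 measured members were higher, *Comp* and *Sox9*, and 2 lower, *Col2a1* and *Matn1*.

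Basement membrane genes had 7 of 13 members at least 2-fold higher, 3 lower and a median of 1.79. *Nid1*, the nidogen that links laminin to collagen, had signals of 1581 and 23766, a log2 difference of 3.91, and *Lamb1* and *Lama1*, laminin chains, differed by 3.62 and 2.64. *Col18a1*, *Lama5* and *Hspg2* were lower, by -2.61, -1.69 and -1.15. Endoderm transcription factors had 5 of 9 measured members higher, none lower and a median of 1.56, between 0.59 in R7 and 3.03 in C. *Foxa2* had 169 and 2258, a difference of 3.74, against at least 7.21 in C, and *Sox17* had 956 and 5657, a difference of 2.57, against 5.18 in C. Genes of visceral endoderm and liver did not follow, with 3 of 17 higher, 5 lower and a median of -0.39. *Ttr*, transthyretin of yolk sac, liver and choroid plexus, had 684 and 21840, a difference of 5.0, whereas *Amn*, the amnionless subunit of the endocytic receptor cubam, had 4303 and 411, a difference of -3.39. *Cubn*, its partner, differed by -1.97 in R8 and by at least 2.61 in C. *Alb* and *Pdx1* were not detected on either R8 array.

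Endothelial genes were divided, 4 of 12 higher and 4 lower, with a median of 0.16. *Cdh5*, VE-cadherin, had signals of 48.2 and 2566, a log2 difference of 5.73, and *Tek*, the angiopoietin receptor, had 117 and 1661, a difference of 3.82. *Pecam1*, which mESCs also carry, had 1623 and 189, a difference of -3.11, and the brightest *Robo4* probe was at most -3.50, while a dim one gave 0.18. By their brightest probes the direction of each of these 4 genes was the same in C and R7. Macrophage genes were nearly absent, with 10 of 12 members on the array below detection on both R8 arrays by their brightest probe, *Ptprc*, *Aif1* and *Tyrobp* among them, and a summed signal of 217 on DoD 8 and 274 on DoD 36. A second *Adgre1* probe was just detected on DoD 36, with a signal of 30.0. The 2 measured members were *Fcer1g*, at least 2.30 higher, and *Mrc1*, at -1.69.

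Epithelial genes were mixed, and most keratins of stratified epithelium were higher. Of 15 members of the epithelium list, 7 were at least 2-fold lower and 2 higher, with a median of -0.69. *Cdh1*, E-cadherin, had signals of 2028 and 406, a log2 difference of -2.32, *Esrp1*, a splicing regulator of epithelia, differed by -2.24 and *Grhl3* was at most -3.73. The higher members were *Krt14*, with 499 and 11575, a difference of 4.53, and *Krt5*, at least 3.17. Keratins were then grouped after these values had been seen. Of 10 measured keratins of stratified epithelium, 9 were at least 2-fold higher and none lower, with a median of 3.78, against 0.98 in C and 2.21 in R7. The 4 measured keratins of simple epithelium, *Krt7*, *Krt8*, *Krt18* and *Krt19*, lay between -0.69 and 0.03, none of them past 2-fold. *Krt6a* and *Krt13*, of hyperproliferative and of mucosal epithelium, were not detected on DoD 8 and had 3820 and 3355 on DoD 36, at least 6.98 and 6.79 higher. *Krt17* had 661 and 4038 in R8, a difference of 2.61, against -2.32 in C and -1.26 in R7. *Krt23* differed by 7.20, against at least 8.95 in C and 5.0 in R7, so that the keratins did not share 1 order over the cultures.

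Secreted products of stomach and placenta were among the largest increases. *Gkn2*, a gastrokine that lines the stomach, was not detected on DoD 8 and had a signal of 43078 on DoD 36, at least 10.48 higher on the log2 scale, and *Gkn1* had 100 and 42557, a difference of 8.73. *Gkn1* was higher in the other cultures too, by 10.03 in C and 8.47 in R7. Of 12 measured prolactin family genes, which the placenta expresses, 10 were at least 2-fold higher and none lower, with a median of 3.56, against 5.75 in C and 3.44 in R7. *Prl2c2*, *Prl2c3*, *Prl2c4* and *Prl2c5* are near-identical copies whose beads may read each other, and they differed by 7.17, 7.35, 7.96 and 5.76. All 4 measured placental cathepsins were higher, with a median of 6.31, against 7.82 in C and 5.21 in R7, and *Ctsr* among them had 37.2 and 7207, a difference of 7.60. Both families were grouped after their values had been seen. *Clps*, pancreatic colipase, was at least 8.34 higher and *Aqp1*, the water channel of choroid plexus, vessels and kidney, at least 7.81.

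**Figure D4:**
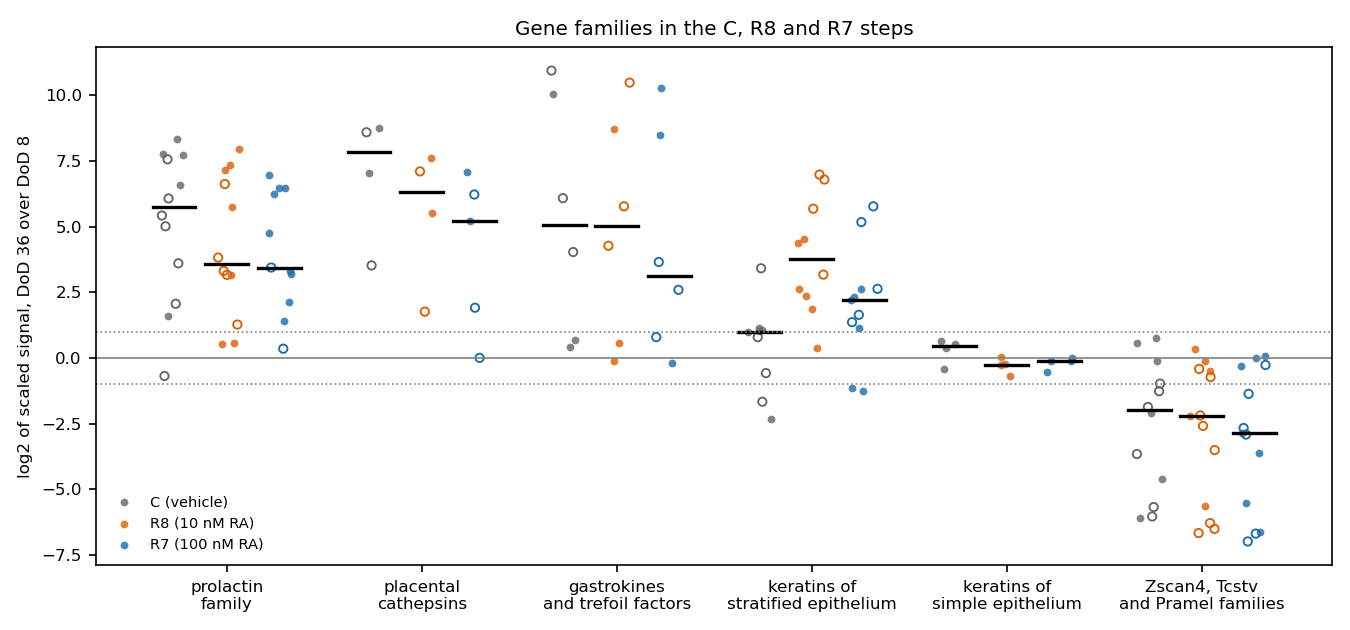
Log2 difference (DoD 36 minus DoD 8) of each measured member of the gene families in C, R8 and R7, 1 point a gene, with the median as a bar, bounds drawn as open circles and dotted lines at 2-fold. In R8 the keratins of stratified epithelium have a median of 3.78 and those of simple epithelium of -0.26, while the medians of the prolactin family and the placental cathepsins are highest in C.

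Genes of antigen presentation, interferon response and complement had 7 of 12 measured members at least 2-fold higher, none lower and a median of 1.22. *B2m*, the light chain of class I molecules, had signals of about 6400 and 40721, a log2 difference of 2.67, and *Irf7*, an interferon regulatory factor, had 126 and 506, a difference of 2.01. *Ifit3*, an interferon-induced gene, had 50.7 and 684, a difference of 3.75, against at most -1.19 in C and 1.74 in R7. Lysosomal genes had 5 of 12 higher, none lower and a median of 0.92, against 1.80 in C and 0.81 in R7. *Ctsh*, a cathepsin, had 579 and 3113, a difference of 2.43, and *Psap*, the precursor of saposins, had about 8057 and 32155, a difference of 2.0.

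Other genes with large changes belonged to none of these groups. *Wfdc1*, a secreted protein with a whey acidic protein domain, was not detected on DoD 8 and had a signal of 7703 on DoD 36, at least 7.99 higher on the log2 scale, and *Tspan8*, a tetraspanin of gut epithelia, had 83.4 and 8102, a difference of 6.60. *Mgst2*, a microsomal glutathione transferase, had 73.2 and 4785, a difference of 6.03, against at least 8.41 in C and 5.53 in R7, and *Mmd2* had 44.8 and 3238, a difference of 6.18, against 2.36 and at least 7.14. The first 3 had their highest DoD 36 signal in C and *Mmd2* in R7. On the lower side, *Aire*, which lets thymus epithelium show the antigens of other tissues, had 1402 and 30.4, a difference of -5.53. *Acsbg3*, *Tex19.2*, *Mgarp*, *Gtsf1l*, *Smtnl2* and *Arap3* were also among the largest decreases, between -5.55 and -4.73. *Tdrd12*, of the germ cell pathway that silences transposons, was at most -5.25. *Psmc1*, an ATPase of the proteasome, had 1978 and 71.6, a difference of -4.79, against -2.40 in C and -3.64 in R7.

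Stress genes and widely expressed controls moved alongside these lists. Of 12 measured stress genes, 3 were at least 2-fold higher and 1 lower, with a median of 0.77, against 1.39 in C and 0.47 in R7, and their summed signal was 50736 on DoD 8 and 62379 on DoD 36. *Ddit3*, of the unfolded protein response, had signals of 857 and 5113, a log2 difference of 2.58, and *Egr1*, an immediate early gene, had 1377 and 6819, a difference of 2.31. *Asns*, asparagine synthetase, had about 12609 and 4996, a difference of -1.34. Of 11 measured controls, 4 were at least 2-fold lower and 1, *B2m*, higher, with a median of -0.60. *Rplp0* and *Rpl13a*, of the ribosome, differed by -1.78 and -1.41, and *Actb* by -0.09, with 1.36 from the dimmest of its probes. The part of stress and of these shifts in the other lists was not tested.

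Most of the R8 step was shared with the other cultures. Of the 2445 genes at least 2-fold higher in R8, 1679 (68.7%) were so in C, where they made up 56.7% of its 2961, and 1598 (65.4%) in R7, 67.6% of its 2363. Of the 1972 that were lower, 1350 (68.5%) were lower in C and 1286 (65.2%) in R7. The backgrounds were 22.7% higher and 16.5% lower in C and 17.6% and 14.5% in R7. In the opposite direction were 51 and 10 genes in C and 32 and 17 in R7. In all 3 cultures 1154 genes were at least 2-fold higher and 1079 lower. Those that passed 2-fold in R8 and in neither other culture numbered 322 (13.2%) upward and 415 (21.0%) downward. These can include genes just short of 2-fold, or not measured, in C and R7. Over the 10147 genes detected on all 6 arrays the log2 differences of R8 had a Pearson r of 0.801 with those of C and of 0.828 with those of R7, given as a description across genes.

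**Figure D5:**
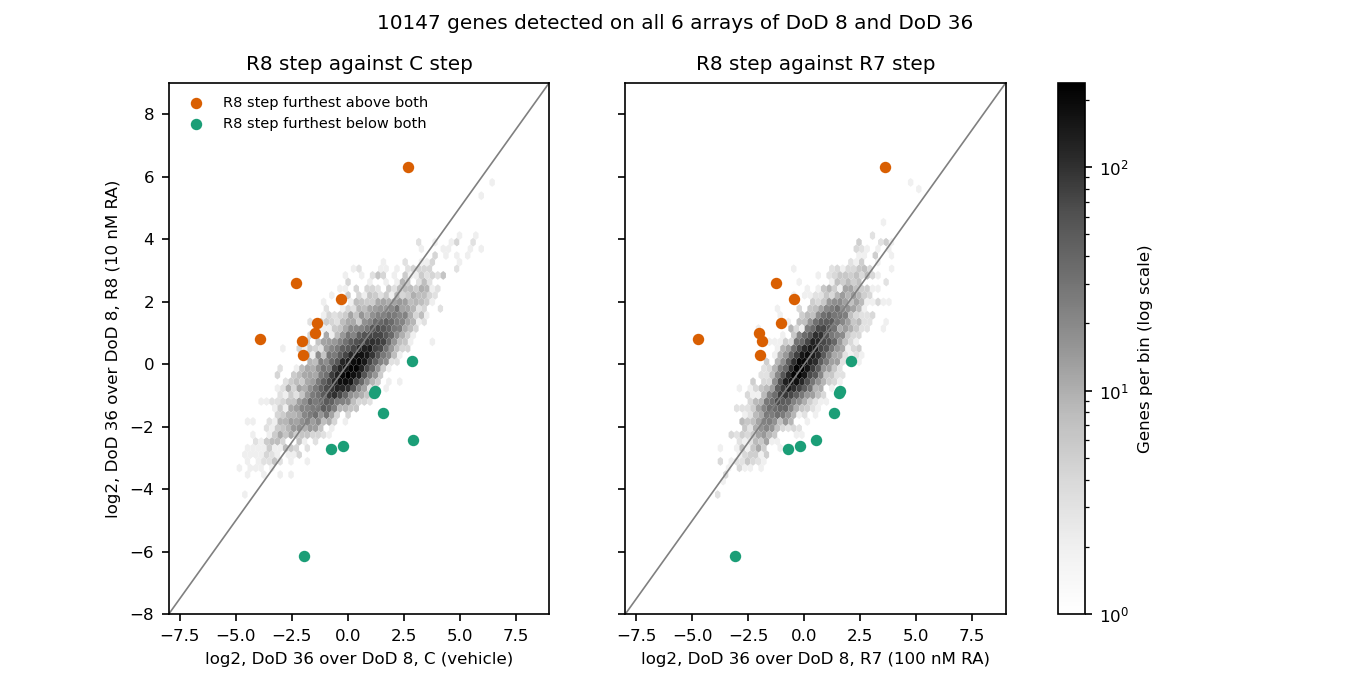
Log2 difference (DoD 36 minus DoD 8) in R8 on the vertical axes against that in C and in R7 on the horizontal axes, for the 10147 genes detected on all 6 arrays, shaded by the number of genes, with the line of equality and, in colour, the genes whose R8 step lay furthest above or below both others. The points follow the diagonal in both panels (r of 0.801 and 0.828).

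The R8 step lay between those of C and R7 for 4723 of these 10147 genes. It was at least 1 log2 unit above both for 190 genes and below both for 139, and with a detection signal of 100 these counts were 76 and 42. The counts were not set against the yardstick of the C and 1 nM RA arrays. Furthest above was *Gsn*, the actin-severing protein gelsolin, with signals of 1485 and 2561 in R8, a log2 difference of 0.79, against -3.92 in C and -4.77 in R7. *Car3*, the carbonic anhydrase of muscle and fat, had 47.5 and 3799, a difference of 6.32, against 2.67 and 3.61. *Sec14l3*, a lipid-binding protein, differed by 2.08, against -0.32 and -0.46, and *Ddx5*, an RNA helicase, by 0.29, against -2.0 and -1.99. *Actg2* was furthest below. *Fbxw5*, of a ubiquitin ligase, had 1931 and 356 and differed by -2.44, against 2.92 in C, but its signal on the C array of DoD 8 was 40.8 where the 1 nM RA array of that day had 1918. *Bcl3*, an NF-kappa-B cofactor, had 189 and a dim 28.5 in R8 and differed by -2.73, against -0.75 and -0.72.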

How the data were processed

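Gene expression was measured on Illumina MouseWG-6 bead arrays, 1 array for each of 9 conditions, from RNA mixed over 6 biological replicates. The authors normalised the raw values by median centering in GeneSpring and deposited log2 ratios, in which each probe's median over the arrays was removed. These values are whole steps of 0.1 signal units divided by a constant of the probe and a constant of the array. The linear signals could therefore be recovered from the deposited log2 values, with the lowest allowed signal taken as 5.0. Each array's constant was its most frequent difference from the first array, taken to come from probes at that lowest signal on both. Of 46643 probes, 20134 were recovered above that floor and 19118 with their dimmest array on it, 6250 never left it, and for 1141 (2.446%) the signal is approximate. For these 1141 a log2 difference between 2 detected signals is not affected, but the call of detection and any bound rest on the approximate signal. The choice of 0.1 as the step rests on the values alone. The signals were then rescaled by the median of the 16146 probes detected on all 9 arrays, with factors of 1.039 and 0.909 for the R8 arrays of DoD 8 and DoD 36. A signal of 29.1 before rescaling, the median over arrays of the background quantile, was the detection level. Depth has no meaning for these arrays, and 1 array a condition limits the precision. A second deposited table with 9 columns of signals and their detection p-values was not used, as its column names matched no sample.

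Probes were named through the platform annotation and RefSeq, 32722 by gene identifier and 11 by accession. Another 61 had identifiers without a match, 55 had several genes and 13794 had none. For a gene with several probes the brightest one by mean log2 signal over the 9 arrays was taken. A change of at least 2-fold was counted in either direction, without a test. The genes named were the 4 markers, the 15 largest changes in each direction among genes detected on both R8 arrays, the 10 largest bounds in each direction, up to 4 members of each list in each direction, defining genes that were not detected, and the 8 genes in each direction whose R8 step lay furthest from the nearer of the C and R7 steps. *Actb*, *Actc1*, *Actn2*, *Aldh1a2*, *Aqp4*, *Bub1*, *Ccnd1*, *Ccnd2*, *Ccng1*, *Cdc20*, *Cdk1*, *Cdkn1a*, *Cdkn1b*, *Cdkn2a*, *Cks2*, *Dnmt1*, *Isl1*, *Klf5*, *Krt7*, *Krt8*, *Krt18*, *Krt19*, *Ldb3*, *Mag*, *Map2*, *Mbp*, *Myh7*, *Myl3*, *Myl7*, *Nes*, *Nkx2-5*, *Pln*, *Rarb*, *Slc17a6*, *Slc1a3*, *Slc32a1*, *Tbx5*, *Tph2* and *Tubb3* were named in addition, after their values had been seen. The members and lists were chosen with earlier results of these data known, and the gene families after the values had been seen. Promoter windows were searched on both strands in the first RefSeq window of each gene. Other scalings, detection levels, probe rules and thresholds were tried. The calculations were checked on simulated signals and run in Python 3.11.15 with numpy 2.4.6, pandas 2.3.3 and numba 0.67.0.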

Additional observations from a re-analysis of the deposited data

Results flagged for a closer look

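A number of genes had a log2 difference of at least 1 in one direction in R8 and of at least 1 in the opposite direction in C or R7. With 1 array on each side none of these differences between cultures was tested. *Dvl2*, a cytoplasmic relay of Wnt signalling, differed by -1.56 in R8, against 1.58 in C and 1.32 in R7, at signals that were 97.9 and 33.2 on the R8 arrays. *Krt17* differed by 2.61, against -2.32 and -1.26, and the long RNA *Snhg11*, of neurons, by 1.31, against -1.38 and -1.06.

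In the other cases 1 of the other cultures had the opposite sign. Against C these were *Fbxw5*, at -2.44 in R8 and 2.92 in C, *Cubn*, at -1.97 and at least 2.61, *Hoxa5*, at -1.45 and 1.38, *Ifit3*, at 3.75 and at most -1.19, *Prom1*, at 2.28 and -1.47, *Tppp3*, a tubulin-binding protein of ciliated cells, at 2.06 and -1.19, and *En1*, at 1.38 and -1.02. Against R7 they were *Myl2*, at 6.58 in R8 and at most -1.38 in R7, *Dcx*, at 2.28 and -1.98, *Dlx2*, at 1.45 and at most -1.12, and *Rbp4*, the carrier of retinol in blood, at 1.45 and -1.61. The DoD 8 signal of *Myl2* in R7 was 61.7, below the 72.2 under which values are least certain by the yardstick.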

How the results depend on the processing

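No paired analysis was possible because each condition had 1 array, and for the same reason no array could be left out. Counts of probes at least 2-fold higher and lower were 6517 and 8600 when deposited differences were used without a detection level, and 1388 and 975 at 4-fold. With a detection signal of 100 the lower count was 2314. Among changed probes 51.8% were higher, against 63.6% without scaling of the arrays and 42.5% when the 0.75 quantile set the scale. The median over probes on both arrays was -0.09, and 0.11 without scaling. *Gfap* was at least 5.24 and 4.26 higher with detection signals of 50 and 100. It was at 7.42 in the deposited differences and 4.91 as the mean of its probes. *Myl2* was at least 5.58 higher with a detection signal of 100, *Nanog* was at -6.97 as the mean of its probes and *Top2a* at -2.75 without scaling. List medians were, with a detection signal of 100, -2.75 for pluripotency, 1.52 for cardiac sarcomere, 1.51 for mesenchyme and 2.38 for synapse genes. With 50 they were 2.2 for mesenchyme and 3.00 for synapse. From the deposited differences they were -3.42 for pluripotency, 0.83 for neuron structure and 1.87 for astrocytes. Over the mean of probes they were -2.78 for pluripotency, 0.59 for neuron structure and 2.37 for synapse, which was also 2.37 over members on both arrays. Mitosis was at -2.17 without scaling and cardiac sarcomere at 1.14 with each array's own background. Genes with an R8 step above both others numbered 76 with a detection signal of 100 and 996 in the deposited differences. Those below both numbered 224 with the median of all probes as the scale, 88 and 42 with detection signals of 50 and 100, and 1144 in the deposited differences. A higher detection signal lowers an increase that is a bound, as for *Gfap* and *Myl2*, and a 4-fold threshold counts fewer probes by definition. The cause of the other shifts was not tested. Of 263 genes taken by the naming rules or the gene families, the 4 markers aside, 238 were at least 2-fold changed. Under the alternatives in which a gene still had a value, 237 of them kept their direction, with *Dct* the exception, and 196 stayed past 2-fold. A setting in which a gene fell below detection on both arrays was left out for that gene. Genes named in addition after their values had been seen, other than the keratins, were not among the 263. Of 32 further lists, 8 had a median past 2-fold, all 8 kept its direction and 3 stayed past 2-fold. Values near the detection signal are bounds or rest on low signals, for which the background of the DoD 36 array was not settled.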

Other observations

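Smaller groups of genes not described above were also read. Of 10 measured genes of choroid plexus and pigment epithelium, 4 were at least 2-fold higher in R8 and 1 was lower, with a median of 0.23, beside 18.2% and 14.7% of all genes. *Mitf*, a factor of pigment cells, had signals of 848 and 4355, a log2 difference of 2.36, while *Rpe65* and *Tyr*, later markers of pigment epithelium, were not detected on either R8 array. *Dct*, of melanin synthesis, was detected on DoD 36 alone, at least 1.65 higher. *Folr1*, a folate receptor, had 2786 and 1222, a difference of -1.19.

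Of 10 imprinted growth genes, 1 was at least 2-fold higher and 1 lower, with a median of 0.36. *Ndn*, necdin of neurons and mesenchyme, had about 6574 and 16818, a difference of 1.36, and *Grb10*, a brake on insulin receptor signalling, about 13542 and 3571, a difference of -1.92. Of 5 measured erythroid genes, 2 were higher and none lower: *Hba-a1*, adult alpha globin, had signals of 59.7 and 167, and *Hba-x*, embryonic zeta globin, was at least 2.23 higher. Globin genes share sequence, so single members are uncertain. Of 12 measured genes of the literature-based set used by the study, 1 was at least 2-fold higher, *Gfap*, and 6 were lower, with a median of -0.85.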
